A study of Homo sapiens with 13 samples.

Results

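The change of each gene's RNA in the eIF4G immunoprecipitate (IP) relative to its change in total RNA was measured in U2OS cells, a human osteosarcoma line, after small interfering RNA (siRNA) against CDK12. It was taken from 9 of the 13 libraries of the series and over all genes, as the log2 difference of IP and total RNA after CDK12 siRNA minus the same difference after control siRNA (the interaction). All 9 libraries came from cells transfected with an siRNA for 48 h and mock-treated in place of rapamycin. The IP was sequenced in 2 libraries after CDK12 siRNA (replicates 2 and 3 of the labels) and 3 after control siRNA, and total RNA depleted of ribosomal RNA in 2 libraries each. The 4 libraries with rapamycin, an inhibitor of the growth kinase mTORC1, came from control siRNA cells and were not compared. Their titles carry another number code than those of the 9 libraries, and what the code stands for is not stated. The rapamycin libraries entered the estimate of the spread, the scaling between libraries and the filter on low genes. Of 26454 genes in the table, 9908 had at least 1 FPKM (tags per kilobase of gene body, scaled to a common library depth) in at least 2 of all 13 libraries and were tested. The comparison asks which RNAs were found with eIF4G more or less than their total amount accounts for. A positive interaction means that a gene was higher in the IP relative to total RNA after CDK12 siRNA, and a negative one that it was lower.

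eIF4G is the scaffold of the cap-binding complex. It joins eIF4E, which holds the cap of an mRNA, to the helicase eIF4A and, through eIF3, to the small ribosomal subunit, so RNA recovered with it is enriched for mRNA engaged in translation initiation. The kinase mTORC1 controls this step by phosphorylating the eIF4E-binding proteins, which otherwise keep eIF4E away from eIF4G, and mRNAs that start with a run of pyrimidines after the cap (terminal oligopyrimidine mRNAs, among them those of ribosomal proteins) depend on it most. CDK12 with its partner cyclin K phosphorylates the tail of RNA polymerase II, and long genes and DNA repair genes such as BRCA1 are known to need it for full-length transcription.

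The 9 libraries held 12.9 to 23.0 (in units of 1e6) tags, worked out from the low FPKM values. Libraries were scaled by median-ratio factors, the interaction was tested on log2(scaled FPKM + 1) with limma, and values given with ± are the estimate and its standard error on that scale. FPKM are printed as deposited, before scaling, in the order of the replicate numbers. The 2 IP libraries after CDK12 siRNA differed most from each other, with a median absolute log2 difference of 0.169 per gene, against 0.0567 to 0.0933 in the other pairs within a group. Nothing in the labels says that replicates came from separate cultures, and the p-values reflect how far these libraries scatter, which may be technical scatter only. Of 10 markers of mesenchymal and bone cells, 7 or 8 had a mean of at least 1 FPKM in each group. Their summed level was 505 to 659 FPKM in the CDK12 siRNA IP and 550 to 627 FPKM in the control IP, and 82.5 to 82.9 FPKM in CDK12 siRNA total RNA and 143 to 158 FPKM in control total RNA. None of 10 blood cell markers reached a mean of 1 FPKM in a group (summed level at most 1.25 FPKM), and at most 2 of 10 epithelial markers did. No IP with a control antibody was analysed here, so RNA that stuck to the beads cannot be told apart from RNA bound to eIF4G.

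The targeted gene was checked first. CDK12 (chr17:37617764-37690818, build hg19) had 0.706 and 0.707 FPKM in CDK12 siRNA total RNA, against 1.64 and 1.72 FPKM in control total RNA. In the IP it had 0.493 and 0.338 FPKM in the CDK12 siRNA IP, against 0.497, 0.532 and 0.535 FPKM in the control IP. The siRNA groups did not overlap in total RNA, where CDK12 changed by -0.55 (adjusted p = 4.5e-05), and stood closer in the IP (-0.17, adjusted p = 0.026). CDK12 was therefore higher in the IP relative to total RNA, with an interaction of 0.38 ± 0.07 (adjusted p = 0.0037). Its close relative CDK13 had 2.28 and 2.28 FPKM in CDK12 siRNA total RNA, against 1.65 and 1.63 FPKM in control total RNA, and 0.625 and 0.718 FPKM in the CDK12 siRNA IP, against 0.629, 0.654 and 0.662 FPKM in the control IP. CDK13 was higher in total RNA in both libraries after CDK12 siRNA, its IP groups overlapped, and its interaction was -0.52 ± 0.07 (adjusted p = 0.00078). CCNK, which encodes cyclin K, stayed under the filter and was not tested.

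After CDK12 siRNA 2224 of 9908 genes were lower in the IP relative to total RNA (22.4%) and 1657 were higher (16.7%), at an adjusted p under 0.05. The interaction had a median of -0.03 and quartiles of -0.33 and 0.30, and 249 of the lower and 276 of the higher genes passed 2-fold. In the IP alone 1820 genes fell (18.4%) and 1354 rose (13.7%), while in total RNA 1932 fell (19.5%) and 2308 rose (23.3%). Most lower calls came with a change in total RNA and no call in the IP. Of the 2224 genes, 1158 rose in total RNA alone, 524 fell in the IP alone, and 299 did both. Of the 1657 higher genes, 727 fell in total RNA alone, 387 rose in the IP alone, 204 did both, and 215 fell in both fractions but less in the IP. The rest of each class was called in neither fraction or moved the same way in both.

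**Figure D1:**
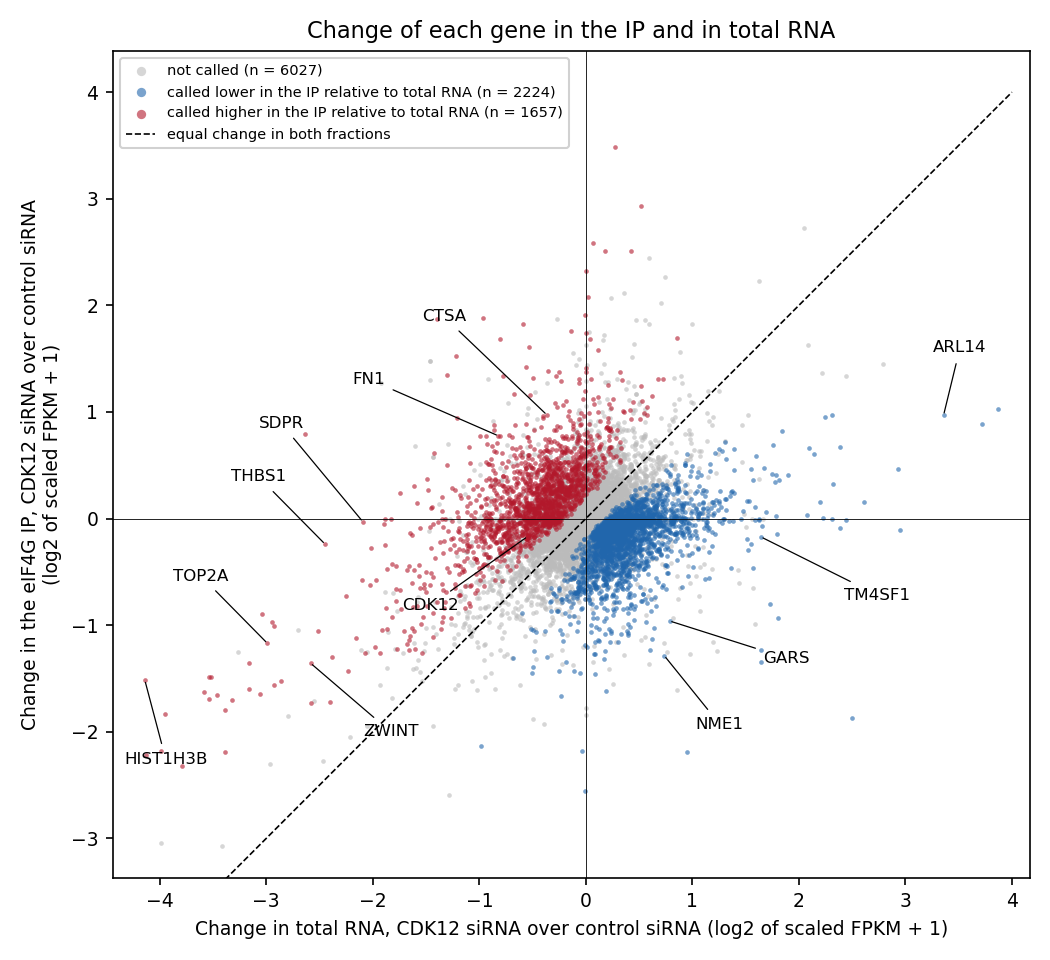
Each point is 1 of the 9908 tested genes, with its log2 change (CDK12 siRNA over control siRNA) in total RNA on the x axis and in the eIF4G IP on the y axis, blue where the interaction was called lower (2224), red where it was called higher (1657) and grey otherwise. Histone genes, TOP2A and ZWINT lie at the far left because they fell most in total RNA, above the dashed line of equal change, while NME1 and GARS lie to the right and below 0 in the IP.

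The split between lower and higher depended on the scaling between libraries. Without scaling, the FPKM as deposited gave 886 genes lower and 3212 higher, and quantile normalization gave 2782 lower and 2212 higher. All 886 genes lower without scaling were also lower with it, all 1657 genes higher with scaling were also higher without it, and 0 genes were called in opposite directions. Leaving out scaling moved the median of all genes by 0.23, to 0.19, so each list median below has the median of all tested genes subtracted. The scale also holds 1 FPKM added to each value, which understates the change of low genes and does so unequally where a gene has different levels in both fractions. With 0.5 reads added in place of 1 FPKM, 2012 of the 2224 lower and 1497 of the 1657 higher calls were made again, and 0 in the opposite direction.

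Factors that start protein synthesis were among the genes lower in the IP relative to total RNA. Of 38 tested translation initiation genes, 19 were lower (50.0%, against 22.4% of all genes) and 0 higher (against 16.7%). Their median was -0.34 relative to all genes. In the IP 19 of them fell and 2 rose, where 18.4% and 13.7% of all genes did. In total RNA 1 fell and 8 rose, where 19.5% and 23.3% of all genes did. Rises in total RNA were thus no more frequent in this list than over all genes. EIF4G1 (chr3:184038101-184053146), which encodes the precipitated protein, had 10.7 and 8.08 FPKM in the CDK12 siRNA IP, against 10.7, 11.9 and 11.8 FPKM in the control IP. In total RNA it had 31.01 and 30.4 FPKM in CDK12 siRNA total RNA, against 26.5 and 24.5 FPKM in control total RNA. Replicate 2 of the CDK12 siRNA IP lay at the lowest control library and replicate 3 below all of them, total RNA was higher in both CDK12 siRNA libraries, and the interaction was -0.91 ± 0.16 (adjusted p = 0.0024). EIF4E, the cap-binding partner, had 1.16 and 1.02 FPKM in the CDK12 siRNA IP, against 1.49, 1.56 and 1.46 FPKM in the control IP, and 1.86 and 1.78 FPKM in CDK12 siRNA total RNA, against 1.27 and 1.45 FPKM in control total RNA. Both fractions of EIF4E separated the siRNA groups without overlap, in opposite directions, and its interaction was -0.77 ± 0.08 (adjusted p = 0.00019).

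EIF2S2, a subunit of the factor that brings the initiator tRNA, had 5.94 and 5.20 FPKM in the CDK12 siRNA IP, against 7.92, 7.46 and 7.16 FPKM in the control IP. Its total RNA changed by only 0.21 (adjusted p = 0.073), and its interaction was -0.74 ± 0.11 (adjusted p = 0.0012). PAIP2, a regulator of the poly(A)-binding protein, and EIF4E2, a relative of EIF4E, had interactions of -0.81 ± 0.12 (adjusted p = 0.0012) and -0.76 ± 0.13 (adjusted p = 0.002). EIF4EBP1, the inhibitor that competes with eIF4G for eIF4E, did not pass, at -0.28 ± 0.12 (adjusted p = 0.098). In the mTOR pathway list 13 of 35 members were lower (37.1%, against 22.4% of all genes) and 1 higher (2.86%, against 16.7%). The list had a median of -0.18 relative to all genes. Here total RNA carried most of the calls, with 17 members up and 1 down, against 10 up and 4 down in the IP. Of all genes 23.3% rose and 19.5% fell in total RNA, and 13.7% rose and 18.4% fell in the IP. RHEB, the small GTPase that switches mTORC1 on, had 2.14 and 1.10 FPKM in the CDK12 siRNA IP, against 3.24, 3.09 and 3.35 FPKM in the control IP, with an interaction of -1.06 ± 0.19 (adjusted p = 0.0028). Every CDK12 siRNA library of the RHEB IP lay below every control library. LARP1, a protein that binds oligopyrimidine mRNAs, had an interaction of -0.60 ± 0.08 (adjusted p = 0.00084). RICTOR, the defining subunit of the second mTOR complex, had one of -0.48 ± 0.08 (adjusted p = 0.0017), and MTOR itself did not pass (0.02 ± 0.06 (adjusted p = 0.83)).

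Ribosomal protein mRNAs stayed close to the median of all genes. Of 52 large subunit genes, 6 were lower and 4 higher, and of 30 small subunit genes 3 were lower and 0 higher, both shares below the 22.4% and 16.7% of all genes. Their medians were -0.01 and 0.08 relative to all genes. RPL38 had 45.9 and 56.8 FPKM in the CDK12 siRNA IP, against 113, 87.2 and 105 FPKM in the control IP, while its total RNA stood at 17.3 and 16.7 FPKM in CDK12 siRNA total RNA, against 17.4 and 16.1 FPKM in control total RNA. Its IP groups did not overlap, its total RNA groups did, and its interaction was -1.38 ± 0.27 (adjusted p = 0.0043). RPL11 (-1.13 ± 0.21 (adjusted p = 0.0032)), RPL36AL (-1.46 ± 0.31 (adjusted p = 0.0054)) and RPL26L1 (-1.28 ± 0.20 (adjusted p = 0.0015)) were lower too, RPL36AL with a call that was lost under quantile normalization. Among small subunit genes RPS24 had 291 and 279 FPKM in the CDK12 siRNA IP, against 423, 381 and 346 FPKM in the control IP, and its interaction of -0.61 ± 0.21 (adjusted p = 0.048) lost its call under 16 of the 22 alternatives. These counts hung on the CDK12 siRNA IP library. Without replicate 2 there were 5 lower and 16 higher large subunit genes and 3 lower and 10 higher small subunit genes, and without replicate 3 there were 9 and 2, and 2 and 0.

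Because oligopyrimidine starts mark the mRNAs most sensitive to mTORC1, the start of each mRNA was read from RefSeq (build GRCh38.p14) for 7021 of 8445 tested protein-coding genes. A start was counted when the first transcribed base was a C followed by at least 4 pyrimidines. It was found in 64.2% of 67 matched ribosomal protein genes and in 6.12% of all matched genes (4.04% of all starts in the RefSeq table). Of genes called lower in the IP relative to total RNA 4.53% had such a start, and of genes called higher 6.53%. The median interaction was -0.03 in the 430 genes with the start and -0.04 in the other genes. The annotated start can lie several bases from the one used in these cells, so a gene without the run at this base can still have one nearby. The starts of 7 genes named here are given from 10 bases before the start to 20 bases from it on, with the pyrimidine run that begins at the start in capitals. They are examples of starts with and without a run. In that build and with the strand in brackets, the stretches lie for RPL38 at chr17:74203668-74203697 (plus), RPS24 at chr10:78033853-78033882 (plus), IPO7 at chr11:9384642-9384671 (plus) and EIF4E at chr4:98929114-98929143 (minus). The others lie for GARS at chr7:30594725-30594754 (plus), TOP2A at chr17:40417877-40417906 (minus) and THBS1 at chr15:39581069-39581098 (plus). IPO7 encodes a nuclear import receptor of the oligopyrimidine list.
RPL38: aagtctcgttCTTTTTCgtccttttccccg
RPS24: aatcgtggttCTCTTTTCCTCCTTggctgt
IPO7: gcttctctttCCTTTCgcgccggttgccgc
EIF4E: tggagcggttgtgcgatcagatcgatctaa
GARS: ggagaaaaccttcggcggggtccttccggg
TOP2A: gagctctcctaaccgacgcgcgtctgtgga
THBS1: ccgccttgccagccgctgcgcccgagctgg
RPL38, RPS24 and IPO7 (interaction -0.65 ± 0.11 (adjusted p = 0.0021)) were lower with a run, EIF4E and GARS lower without one, and TOP2A and THBS1 higher without one. No higher gene with a run is among these 7, so they do not show how a run goes with direction. Among all matched genes 78 of 1195 higher ones had the start, against 76 of 1676 lower ones. Of the 29 tested oligopyrimidine mRNAs that do not encode ribosomal proteins, 8 were lower (27.6%, against 22.4% of all genes). The higher ones were 2 (6.90%, against 16.7%), and the list had a median of 0.10 relative to all genes. EEF1A2, an elongation factor, was one of the higher ones, at 4.11 and 4.09 FPKM in the CDK12 siRNA IP, against 2.54, 2.18 and 2.49 FPKM in the control IP, with an interaction of 0.80 ± 0.12 (adjusted p = 0.0012).

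Genes for folding and degrading proteins were lower more often than higher. In the heat shock and chaperonin list 14 of 27 were lower (51.9%, against 22.4% of all genes) and 1 higher (3.70%, against 16.7%). Its median was -0.42 relative to all genes, the lowest of the 31 lists shown. Of 45 proteasome genes 15 were lower (33.3%) and 0 higher, with a median of -0.29. STIP1, which links the chaperones HSP70 and HSP90, had 9.62 and 8.70 FPKM in the CDK12 siRNA IP, against 13.4, 13.8 and 13.6 FPKM in the control IP. Its total RNA of 7.62 and 6.54 FPKM in CDK12 siRNA total RNA, against 7.51 and 7.37 FPKM in control total RNA left the siRNA groups overlapping, and its interaction was -0.82 ± 0.12 (adjusted p = 0.0011). AHSA1, an activator of HSP90, had an interaction of -1.02 ± 0.18 (adjusted p = 0.0023). PSMD12, a subunit of the proteasome lid, had 4.93 and 4.68 FPKM in the CDK12 siRNA IP, against 6.84, 5.78 and 6.76 FPKM in the control IP, and 3.98 and 3.83 FPKM in CDK12 siRNA total RNA, against 3.37 and 3.18 FPKM in control total RNA. The groups separated in both fractions, lower in the IP and higher in total RNA after CDK12 siRNA, with an interaction of -0.89 ± 0.12 (adjusted p = 0.00076). PSME4, a proteasome activator, and PSMB7, a catalytic subunit, had interactions of -0.81 ± 0.08 (adjusted p = 0.00019) and -0.93 ± 0.10 (adjusted p = 0.00025). HSPA5, the main chaperone of the endoplasmic reticulum, had 31.9 and 25.9 FPKM in the CDK12 siRNA IP, against 42.5, 42.3 and 48.9 FPKM in the control IP, and 33.1 and 30.97 FPKM in CDK12 siRNA total RNA, against 24.8 and 24.6 FPKM in control total RNA. It was lower in the IP and higher in total RNA in every CDK12 siRNA library (-1.36 ± 0.17 (adjusted p = 0.00044)). Its list as a whole had 6 lower (19.4%) and 1 higher (3.23%) of 31, both shares under those of all genes.

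Enzymes that load amino acids onto tRNA were lower in 13 of 22 tested cases (59.1%, against 22.4% of all genes). They were higher in 1 (4.55%, against 16.7%), with a median of -0.39 relative to all genes. GARS, the glycine enzyme, had 9.45 and 5.19 FPKM in the CDK12 siRNA IP, against 11.9, 12.8 and 14.1 FPKM in the control IP, and 9.93 and 9.58 FPKM in CDK12 siRNA total RNA, against 6.14 and 6.13 FPKM in control total RNA. The IP libraries after CDK12 siRNA lay below every control library although they differed from each other, total RNA lay above, and the interaction was -1.75 ± 0.26 (adjusted p = 0.0011). YARS, the tyrosine enzyme, had 2.17 and 2.35 FPKM in the CDK12 siRNA IP, against 3.65, 3.31 and 3.11 FPKM in the control IP, with an interaction of -0.89 ± 0.12 (adjusted p = 0.00057). CARS and IARS had interactions of -0.52 ± 0.05 (adjusted p = 0.00023) and -0.62 ± 0.09 (adjusted p = 0.00075). Many of these enzymes are targets of ATF4, a transcription factor that responds to lack of amino acids. Of 21 tested ATF4 targets 11 were lower (52.4%) and 0 higher, with a median of -0.36. ASNS, which makes asparagine, had 2.08 and 1.81 FPKM in the CDK12 siRNA IP, against 3.19, 3.35 and 3.27 FPKM in the control IP, while its total RNA changed by -0.01 (adjusted p = 0.96). The ASNS interaction was -0.67 ± 0.11 (adjusted p = 0.0018). SLC7A11, the cystine transporter, had an interaction of -0.76 ± 0.10 (adjusted p = 0.0006), and CHAC1, which degrades glutathione, one of -1.04 ± 0.19 (adjusted p = 0.0025).

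Without scaling between libraries these lists held fewer lower calls, with 6 lower and 3 higher translation initiation genes, 3 and 4 heat shock genes, 7 and 2 proteasome genes, 5 and 2 tRNA-charging enzymes, and 4 and 2 ATF4 targets. Their medians relative to all genes stayed below 0 under each of the 22 alternatives run.

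**Figure D2:**
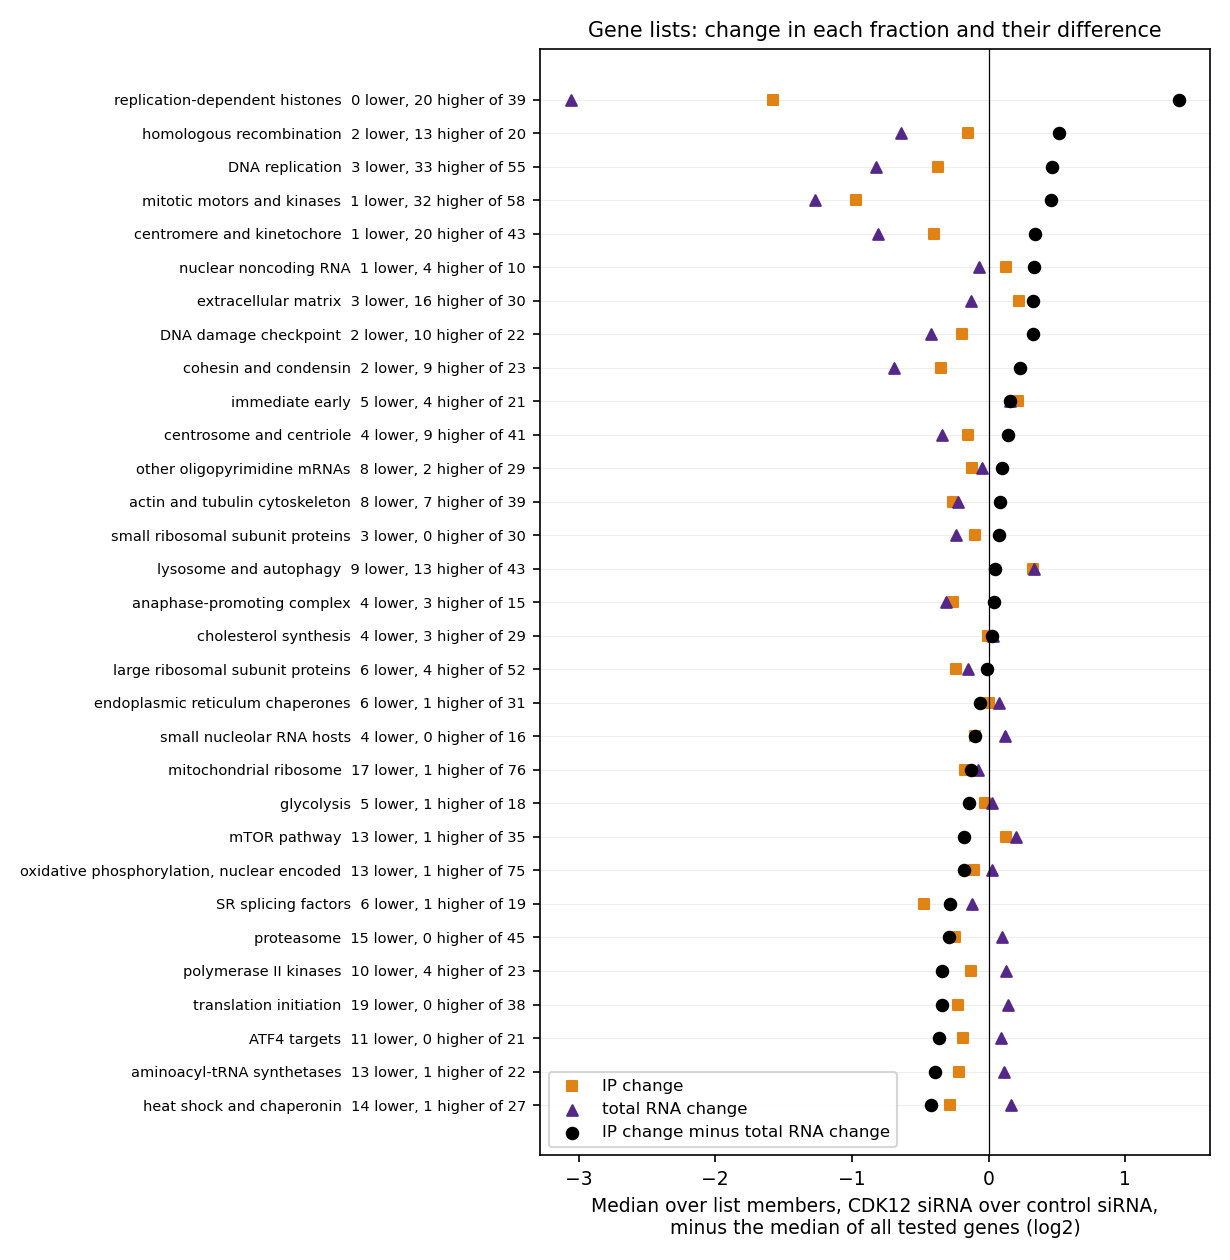
Medians over the tested members of 31 gene lists, as the log2 change of CDK12 siRNA over control siRNA minus the median of all 9908 tested genes, for the IP (orange squares), total RNA (purple triangles) and IP minus total RNA (black circles), with the counts called lower and higher in the interaction beside each name. Histones and the cell division lists sit at the top, with both fractions below 0 and total RNA further down, and the chaperone, tRNA-charging, ATF4 and translation initiation lists at the bottom, with the IP below and total RNA above 0.

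Nuclear genes of mitochondria were not called lower more often than all genes. Of 75 genes of oxidative phosphorylation 13 were lower and 1 higher, and of 76 mitochondrial ribosome genes 17 were lower and 1 higher. Neither lower share was above the 22.4% of all genes, and the higher shares (1.33% and 1.32%) were under the 16.7% of all genes. The oxidative phosphorylation median was -0.18 relative to all genes and stayed below 0 under each of the 22 alternatives. The mitochondrial ribosome median was -0.13 relative to all genes. It turned above 0 (at most 0.0095) under quantile normalization and without replicate 2 of the CDK12 siRNA IP. MRPL32 had 73.6 and 62.4 FPKM in the CDK12 siRNA IP, against 126, 107 and 97.7 FPKM in the control IP, and 9.83 and 8.52 FPKM in CDK12 siRNA total RNA, against 6.30 and 6.93 FPKM in control total RNA. Its groups separated in both fractions, in opposite directions, with an interaction of -1.48 ± 0.23 (adjusted p = 0.0013). MRPL39 (-1.26 ± 0.12 (adjusted p = 0.00018)) and UQCRFS1, the iron-sulfur subunit of respiratory complex III (-1.11 ± 0.20 (adjusted p = 0.0024)), were lower too. The first list depended on 1 library, with 10 lower and 13 higher without replicate 2 of the CDK12 siRNA IP, against 22 and 0 without replicate 3.

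Kinases and elongation factors of RNA polymerase II were lower in 10 of 23 cases (43.5%, against 22.4% of all genes). They were higher in 4 (17.4%, against 16.7%), with a median of -0.34 relative to all genes. POLR2A, the largest subunit of the polymerase, had 0.450 and 0.337 FPKM in the CDK12 siRNA IP, against 0.529, 0.614 and 0.714 FPKM in the control IP, and 3.64 and 3.44 FPKM in CDK12 siRNA total RNA, against 2.71 and 2.47 FPKM in control total RNA. It was lower in the IP and higher in total RNA in every CDK12 siRNA library, and its interaction was -0.79 ± 0.09 (adjusted p = 0.00024). LEO1, a subunit of the elongation complex PAF, had an interaction of -0.64 ± 0.08 (adjusted p = 0.00048). NELFE, a subunit of a pausing factor, went the other way with 0.91 ± 0.14 (adjusted p = 0.0011). Its total RNA was 1.24 and 1.52 FPKM in CDK12 siRNA total RNA, against 5.24 and 4.97 FPKM in control total RNA, and its gene body overlaps another gene of the table. SR splicing factors were lower in 6 of 19 cases (31.6%) and higher in 1 (5.26%). Among them TRA2A had 4.04 and 3.25 FPKM in the CDK12 siRNA IP, against 6.64, 5.68 and 7.16 FPKM in the control IP, with nearly the same total RNA in both siRNA groups (-0.05, adjusted p = 0.74) and an interaction of -0.80 ± 0.14 (adjusted p = 0.0021).

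A few other named genes were lower in the IP relative to total RNA mainly through a higher level in total RNA. MDM2, a ubiquitin ligase, had 5.34 and 4.79 FPKM in the CDK12 siRNA IP, against 4.22, 4.49 and 4.65 FPKM in the control IP, and 8.82 and 9.11 FPKM in CDK12 siRNA total RNA, against 5.79 and 5.87 FPKM in control total RNA. After scaling its IP change did not pass (0.0015, adjusted p = 1), total RNA separated the groups, and its interaction was -0.74 ± 0.09 (adjusted p = 0.00051). TIGAR, a phosphatase that slows glycolysis, had an interaction of -0.89 ± 0.08 (adjusted p = 1.0e-04). ZMAT3, an RNA-binding protein, rose in both fractions and more in total RNA, with an interaction of -0.62 ± 0.08 (adjusted p = 0.00062).

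Growth response genes were called about as often as all genes. Of 21 immediate early genes 5 were lower (23.8%, against 22.4% of all genes) and 4 higher (19.0%, against 16.7%). MYC, the growth transcription factor, had 29.2 and 26.8 FPKM in the CDK12 siRNA IP, against 19.5, 20.8 and 21.1 FPKM in the control IP, and 14.98 and 13.3 FPKM in CDK12 siRNA total RNA, against 6.41 and 6.11 FPKM in control total RNA. It was higher after CDK12 siRNA in every library of both fractions, but the IP change did not pass (0.26, adjusted p = 0.061), and its interaction was -0.999 ± 0.14 (adjusted p = 0.00076). FOSL1, a partner of JUN, had 5.07 and 4.76 FPKM in CDK12 siRNA total RNA, against 1.61 and 1.58 FPKM in control total RNA, and an interaction of -1.83 ± 0.19 (adjusted p = 0.00021). FOSL2, its relative, had 2.15 and 2.05 FPKM in CDK12 siRNA total RNA, against 6.99 and 6.55 FPKM in control total RNA, and an interaction of 1.36 ± 0.10 (adjusted p = 5.7e-05). The FOS relatives therefore moved to opposite sides, each with a change in total RNA that its IP did not follow (-0.46 in the IP for FOSL1 and 0.20 for FOSL2). Of 29 sterol genes 4 were lower and 3 higher, both shares (13.8% and 10.3%) under those of all genes. HMGCS1, an early enzyme of cholesterol synthesis, had 14.1 and 13.9 FPKM in CDK12 siRNA total RNA, against 7.28 and 7.41 FPKM in control total RNA with no call in the IP (adjusted p = 0.078), and an interaction of -1.33 ± 0.16 (adjusted p = 0.0004). FADS1, a fatty acid desaturase, had an interaction of 1.06 ± 0.12 (adjusted p = 0.00026). Of 18 glycolysis genes 5 were lower (27.8%, against 22.4% of all genes) and 1 higher (5.56%, against 16.7%). HK2, which traps glucose in the cell, had 1.26 and 1.25 FPKM in CDK12 siRNA total RNA, against 0.338 and 0.388 FPKM in control total RNA, 0.317 and 0.207 FPKM in the CDK12 siRNA IP, against 0.212, 0.216 and 0.213 FPKM in the control IP, and an interaction of -0.82 ± 0.07 (adjusted p = 0.00011).

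Genes of cell division fell in both fractions after CDK12 siRNA, and their median was higher in the IP relative to total RNA. In bulk RNA, fewer cells of a type and less RNA per cell cannot be told apart. Of 58 mitotic motors and kinases 55 fell in the IP and 56 in total RNA, where 18.4% and 19.5% of all genes did. In the interaction 32 were higher (55.2%, against 16.7% of all genes) and 1 lower, MAD1L1. The median was 0.46 relative to all genes. ASPM, a protein of the spindle pole, had 0.440 and 0.531 FPKM in the CDK12 siRNA IP, against 0.981, 1.15 and 1.08 FPKM in the control IP, and 0.307 and 0.322 FPKM in CDK12 siRNA total RNA, against 4.16 and 4.68 FPKM in control total RNA. Every CDK12 siRNA library was below every control library of its fraction, and the interaction was 1.39 ± 0.10 (adjusted p = 3.4e-05). KIF20B, a motor of cell cleavage, and CIT, a kinase of the same step, had interactions of 0.79 ± 0.08 (adjusted p = 0.00018) and 0.69 ± 0.07 (adjusted p = 0.00016). In the centromere and kinetochore list 20 of 43 were higher (46.5%) and 1 lower (2.33%), with a median of 0.34. ZWINT, a kinetochore protein, had 48.9 and 46.4 FPKM in the CDK12 siRNA IP, against 113, 106 and 107 FPKM in the control IP, and 2.16 and 1.83 FPKM in CDK12 siRNA total RNA, against 20.4 and 17.6 FPKM in control total RNA. The IP kept a larger part of the control level than total RNA did, and the interaction was 1.22 ± 0.14 (adjusted p = 0.00035). Of 41 centrosome genes 4 were lower (9.76%, against 22.4% of all genes) and 9 higher (21.95%, against 16.7%). Of 23 cohesin and condensin genes 2 were lower (8.7%) and 9 higher (39.1%).

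Replication and repair genes behaved alike by these counts. Of 55 DNA replication genes 33 were higher in the IP relative to total RNA (60%, against 16.7% of all genes). The lower ones were 3 (5.45%, against 22.4%), and the list had a median of 0.46 relative to all genes. TOP2A (chr17:38544773-38574202), the topoisomerase that untangles replicated DNA, had 6.83 and 6.45 FPKM in the CDK12 siRNA IP, against 13.2, 14.99 and 14.6 FPKM in the control IP, and 1.30 and 1.33 FPKM in CDK12 siRNA total RNA, against 19.3 and 19.3 FPKM in control total RNA. It fell in both fractions with no overlap, with changes of -1.17 in the IP and -2.99 in total RNA (log2), and its interaction was 1.82 ± 0.11 (adjusted p = 2.6e-05). CDT1, which licenses origins, had 0.223 and 0.318 FPKM in CDK12 siRNA total RNA, against 1.93 and 2.19 FPKM in control total RNA, but 1.65 and 1.52 FPKM in the CDK12 siRNA IP, against 1.25, 1.41 and 1.47 FPKM in the control IP. CDT1 total RNA was lower in both CDK12 siRNA libraries, the IP change after scaling did not pass (0.01, adjusted p = 0.9), and the interaction was 1.22 ± 0.10 (adjusted p = 5.7e-05). MCM4 and MCM5, subunits of the replicative helicase, had interactions of 1.05 ± 0.09 (adjusted p = 8.1e-05) and 1.08 ± 0.10 (adjusted p = 0.00016). Homologous recombination genes, which include the known targets of CDK12, were higher in 13 of 20 cases (65.0%) and lower in 2 (10.0%), with a median of 0.52. BRCA1 had 0.146 and 0.118 FPKM in CDK12 siRNA total RNA, against 1.16 and 1.25 FPKM in control total RNA, and 0.308 and 0.302 FPKM in the CDK12 siRNA IP, against 0.485, 0.505 and 0.516 FPKM in the control IP. Both fractions were lower in every CDK12 siRNA library, and the interaction was 0.66 ± 0.07 (adjusted p = 0.00018). BRIP1, a helicase partner of BRCA1, had one of 0.92 ± 0.07 (adjusted p = 7.2e-05), BRCA2 one of 0.57 ± 0.06 (adjusted p = 0.00032) and FANCI, of the crosslink repair pathway, one of 0.74 ± 0.08 (adjusted p = 0.00019).

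Of 22 DNA damage checkpoint genes 10 were higher (45.5%, against 16.7% of all genes) and 2 lower (9.09%, against 22.4%). The list had a median of 0.33 relative to all genes. WEE1, the kinase that holds cells before mitosis, had 8.28 and 9.71 FPKM in the CDK12 siRNA IP, against 6.72, 6.74 and 7.26 FPKM in the control IP, and 1.42 and 1.42 FPKM in CDK12 siRNA total RNA, against 3.42 and 3.42 FPKM in control total RNA. Total RNA of WEE1 fell with no overlap, the IP change did not pass (adjusted p = 0.17), and the interaction was 0.91 ± 0.13 (adjusted p = 0.00097). CHEK1, a checkpoint kinase, had 0.475 and 0.527 FPKM in CDK12 siRNA total RNA, against 1.04 and 1.12 FPKM in control total RNA, and 1.75 and 1.87 FPKM in the CDK12 siRNA IP, against 1.85, 2.30 and 1.97 FPKM in the control IP. Its total RNA fell and its interaction did not pass (0.15 ± 0.10 (adjusted p = 0.25)), though it did with 0.1 FPKM or 0.5 reads added in place of 1 FPKM, and without scaling.

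Histone genes of S phase, whose mRNAs end in a stem-loop and carry no poly(A) tail, had the largest list median of the interaction, 1.40 relative to all genes. Of 39 tested, 20 were higher (51.3%, against 16.7% of all genes) and 0 lower. In total RNA 32 fell and in the IP 31, where 19.5% and 18.4% of all genes did. HIST1H1E, a linker histone, had 462 and 563 FPKM in the CDK12 siRNA IP, against 1448, 1290.2 and 1359 FPKM in the control IP, and 20.3 and 22.9 FPKM in CDK12 siRNA total RNA, against 226 and 238 FPKM in control total RNA. It fell in both fractions, with changes of -1.60 in the IP and -3.16 in total RNA (log2), with an interaction of 1.56 ± 0.17 (adjusted p = 0.00027). HIST2H2AB, a core histone, had 150.1 and 223 FPKM in the CDK12 siRNA IP, against 533, 386 and 448 FPKM in the control IP, and 4.52 and 4.29 FPKM in CDK12 siRNA total RNA, against 70.95 and 69.4 FPKM in control total RNA. All CDK12 siRNA libraries lay below all controls, and the interaction was 2.05 ± 0.31 (adjusted p = 0.0012). HIST1H3B had 42.9 and 127 FPKM in the CDK12 siRNA IP, against 218, 162 and 189 FPKM in the control IP, so both CDK12 siRNA libraries lay below the controls but far apart from each other, and its interaction was 2.62 ± 0.64 (adjusted p = 0.011). Histone genes are members of near-identical families, and reads that fit several copies may have been counted at the wrong one. Over the 22 alternatives the list median relative to all genes lay between 0.12, with no filter on low values (66 members tested), and 2.20, under quantile normalization. It was 1.77 without replicate 2 and 0.93 without replicate 3 of the CDK12 siRNA IP.

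**Figure D3:**
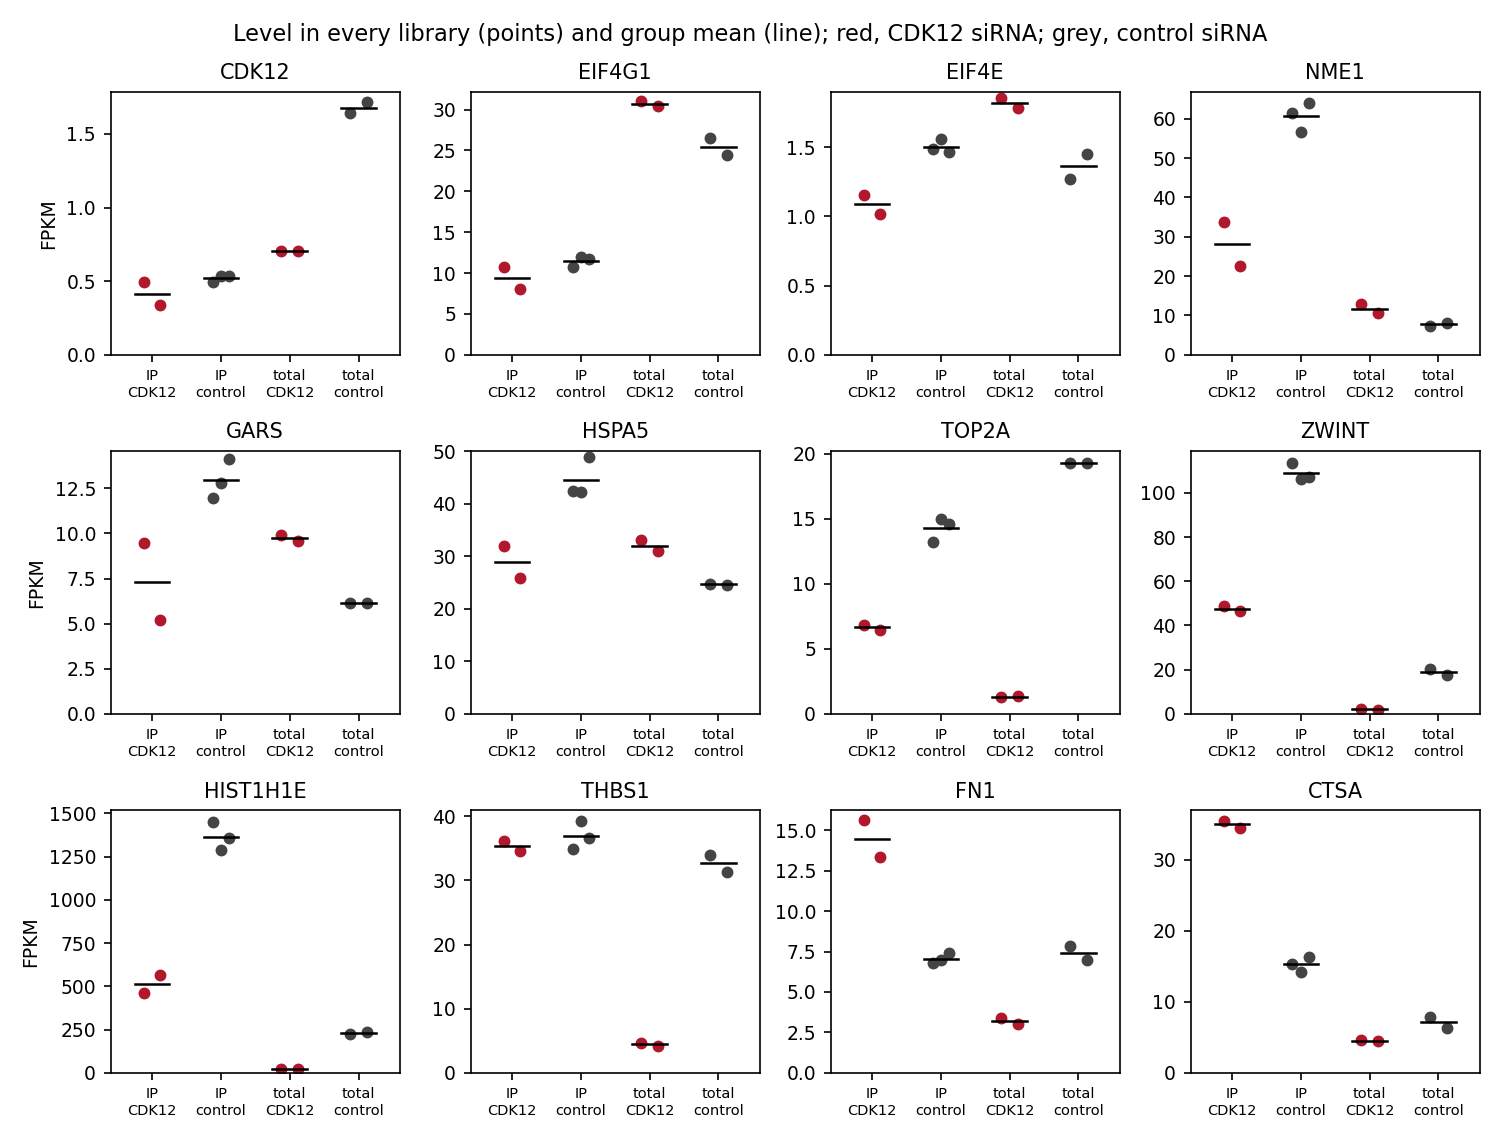
FPKM as deposited, on axes that start at 0, of 12 genes in each library (points, red for CDK12 siRNA and grey for control siRNA) with the group mean (line), for the IP on the left and total RNA on the right of each panel. NME1, GARS, HSPA5 and EIF4E are lower in the IP and higher in total RNA after CDK12 siRNA, TOP2A, ZWINT and HIST1H1E are lower in both, THBS1 is lower in total RNA alone, and FN1 and CTSA are higher in the IP and lower in total RNA.

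Genes of the extracellular matrix formed a second group on the higher side. Of 30 tested, 16 were higher in the IP relative to total RNA (53.3%, against 16.7% of all genes). The lower ones were 3 (10.0%, against 22.4%), and the list had a median of 0.33 relative to all genes. In the IP 15 rose and 3 fell, where 13.7% and 18.4% of all genes did. In total RNA 9 rose and 12 fell, where 23.3% and 19.5% of all genes did. FN1, fibronectin, had 15.6 and 13.3 FPKM in the CDK12 siRNA IP, against 6.79, 7.001 and 7.40 FPKM in the control IP, and 3.41 and 3.03 FPKM in CDK12 siRNA total RNA, against 7.86 and 6.95 FPKM in control total RNA. Its groups separated in both fractions, higher in the IP and lower in total RNA, with an interaction of 1.60 ± 0.13 (adjusted p = 8.1e-05). THBS1 (chr15:39873280-39891121), the matrix protein thrombospondin, had 4.65 and 4.20 FPKM in CDK12 siRNA total RNA, against 34.02 and 31.3 FPKM in control total RNA, while its IP stayed at 36.1 and 34.6 FPKM in the CDK12 siRNA IP, against 34.9, 39.2 and 36.7 FPKM in the control IP. Its IP groups overlapped and its interaction of 2.21 ± 0.16 (adjusted p = 4.5e-05) came from total RNA. The collagens COL4A2 and COL6A2 had interactions of 0.996 ± 0.10 (adjusted p = 0.0002) and 0.96 ± 0.11 (adjusted p = 0.00027). COL4A2 had 2.48 and 2.89 FPKM in the CDK12 siRNA IP, against 1.01, 1.02 and 1.01 FPKM in the control IP, with no overlap.

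Of 43 lysosome and autophagy genes 13 were higher (30.2%, against 16.7% of all genes) and 9 lower (20.9%, against 22.4%). In the IP 24 of the 43 rose and 0 fell, where 13.7% and 18.4% of all genes did. In total RNA 24 rose and 4 fell, where 23.3% and 19.5% of all genes did. CTSA, the protective protein of lysosomal enzymes, had 35.5 and 34.6 FPKM in the CDK12 siRNA IP, against 15.4, 14.2 and 16.3 FPKM in the control IP, and 4.55 and 4.46 FPKM in CDK12 siRNA total RNA, against 7.93 and 6.27 FPKM in control total RNA. It was higher in the IP and lower in total RNA in every CDK12 siRNA library (1.34 ± 0.14 (adjusted p = 0.00024)). NPC1, the cholesterol transporter, had an interaction of -0.58 ± 0.06 (adjusted p = 0.00024), and ATP6V1B2, a subunit of the proton pump, one of -1.04 ± 0.14 (adjusted p = 0.0008). Cytoskeleton genes had 8 lower (20.5%) and 7 higher (17.9%) of 39, near the 22.4% and 16.7% of all genes. STMN1, which takes microtubules apart, had 3.69 and 3.998 FPKM in CDK12 siRNA total RNA, against 24.5 and 25.8 FPKM in control total RNA, and an interaction of 1.53 ± 0.24 (adjusted p = 0.0014). Of 15 tested subunits and partners of the anaphase-promoting complex 4 were lower (26.7%) and 3 higher, both shares slightly above those of all genes. CDC26 was among the lower ones, at -0.97 ± 0.24 (adjusted p = 0.012).

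Some RNAs that act outside translation were called too. Of 10 nuclear noncoding RNAs 4 were higher (40%, against 16.7% of all genes) and 1 lower (10%, against 22.4%). RPPH1, the RNA of ribonuclease P, had 1873 and 1833 FPKM in the CDK12 siRNA IP, against 1081, 817 and 979.8 FPKM in the control IP, and 1397 and 1273 FPKM in CDK12 siRNA total RNA, against 3079.6 and 2391 FPKM in control total RNA. It was higher in the IP and lower in total RNA with no overlap, and its interaction was 1.58 ± 0.20 (adjusted p = 0.00054). MALAT1, a long RNA kept in the nucleus, had 868 and 923 FPKM in CDK12 siRNA total RNA, against 614 and 630.1 FPKM in control total RNA, and 110.4 and 90.3 FPKM in the CDK12 siRNA IP, against 98.2, 105 and 119 FPKM in the control IP. Its total RNA was higher after CDK12 siRNA, its IP groups overlapped, and its interaction was -1.02 ± 0.17 (adjusted p = 0.0018), a call that was lost under quantile normalization. SNHG12, a transcript that hosts small nucleolar RNAs, had 3.08 and 4.60 FPKM in the CDK12 siRNA IP, against 10.8, 9.02 and 7.45 FPKM in the control IP, with an interaction of -1.83 ± 0.26 (adjusted p = 0.00085). Of 16 such hosts 4 were lower (25%, against 22.4% of all genes) and 0 higher (against 16.7%).

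Among the 12 largest falls of the interaction with a mean of at least 5 FPKM in a group of each fraction, 7 were small nucleolar RNA genes, 1 was the host SNHG12, and the other genes were NME1, ARL14, TM4SF1 and G0S2. NME1 (chr17:49230920-49239450), a nucleoside diphosphate kinase, had 33.6 and 22.6 FPKM in the CDK12 siRNA IP, against 61.5, 56.6 and 63.97 FPKM in the control IP, and 12.8 and 10.6 FPKM in CDK12 siRNA total RNA, against 7.32 and 8.13 FPKM in control total RNA. The siRNA groups separated in both fractions, lower in the IP and higher in total RNA, and the interaction was -2.03 ± 0.26 (adjusted p = 0.00054). ARL14, a small GTPase, had 13.4 and 14.3 FPKM in CDK12 siRNA total RNA, against 0.641 and 0.647 FPKM in control total RNA, and 20.4 and 8.64 FPKM in the CDK12 siRNA IP, against 5.49, 6.59 and 4.76 FPKM in the control IP. It was higher in every CDK12 siRNA library of both fractions and more so in total RNA (-2.39 ± 0.42 (adjusted p = 0.0024)). TM4SF1, a membrane protein of tetraspanin type, had 14.9 and 15.4 FPKM in CDK12 siRNA total RNA, against 4.83 and 5.04 FPKM in control total RNA, with an interaction of -1.82 ± 0.22 (adjusted p = 0.0004). G0S2, an inhibitor of fat breakdown, had 11.6 and 1.35 FPKM in the CDK12 siRNA IP, against 4.67, 3.92 and 3.34 FPKM in the control IP, and its interaction of -2.45 ± 0.80 (adjusted p = 0.038) lost its call under 10 of the 22 alternatives, among them each of the 7 that left out a control or a total RNA library.

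Small RNA genes rest on few reads, because their bodies are short and the libraries were not made for small RNA. SNORA61 had 3 to 5 reads in the CDK12 siRNA IP, 6 to 20 in the control IP, 40 to 67 in CDK12 siRNA total RNA and 9 to 35 in control total RNA, with an interaction of -2.996 ± 0.66 (adjusted p = 0.0069). SNORD31 had 2 to 3 and 14 to 21 reads in the CDK12 siRNA and control IP and 25 to 41 and 37 to 41 in CDK12 siRNA and control total RNA, with an interaction of -2.54 ± 0.54 (adjusted p = 0.006). Both lie inside a longer gene of the table, so reads of the host's introns or exons count for them as well. For SNORA61 that gene is SNHG12, so the falls of SNORA61 and SNHG12 are not separate results. SNORD54 (-4.37), SNORD102 (-3.14), SNORD44 (-2.74), SNORD12B (-2.53) and SNORD1C (-1.80) were lower, and SNORD36A (3.42) and SNORA63 (2.32) higher, all inside a longer gene. Of these calls that of SNORD44 was lost under 6 of the 22 alternatives, SNORA63 under 4, SNORD36A under 3 and SNORD102 under 2. SNORD54, SNORD1C and SNORD31 lost theirs with library weights and SNORD12B without replicate 1 of control total RNA. Over all 253 tested small nucleolar and Cajal body RNA genes 12 were lower and 8 higher, and over 280 microRNA genes 12 were lower and 22 higher, shares under those of all genes, at a median of 2 and 0 reads per library.

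The 12 largest rises, chosen by the same rule, hold 3 microRNA genes, 5 histone genes, SNORD36A, SNORA63, THBS1 and SDPR. The microRNA hairpins are shown, because their genes were counted as entries of their own, with the mature arms annotated in RefSeq (build GRCh38.p14) in capitals.
MIR4709: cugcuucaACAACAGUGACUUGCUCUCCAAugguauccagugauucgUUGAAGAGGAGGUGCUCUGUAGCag
MIR3654: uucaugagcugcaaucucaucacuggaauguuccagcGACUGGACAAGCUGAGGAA
MIR3064: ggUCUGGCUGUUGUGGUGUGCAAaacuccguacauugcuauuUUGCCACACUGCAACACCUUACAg
MIR4709 lies at chr14:74480133-74480204, MIR3654 at chr7:133034860-133034915 and MIR3064 at chr17:64500774-64500839 of that build, all on the minus strand and each inside a longer gene of the table. No pair of their mature arms shares a seed (bases 2 to 8). MIR4709 had 192 and 850.1 FPKM in the CDK12 siRNA IP, against 98.5, 74.1 and 125 FPKM in the control IP, and 7.95 and 2.46 FPKM in CDK12 siRNA total RNA, against 17.8 and 13.7 FPKM in control total RNA. Its CDK12 siRNA IP libraries lay above the controls and differed more from each other than replicate 2 did from the controls, and its interaction was 3.27 ± 0.87 (adjusted p = 0.016). MIR3654 had 131 to 430 reads in the CDK12 siRNA IP and 52 to 68 in the control IP, with an interaction of 2.49 ± 0.66 (adjusted p = 0.015). Its length in the deposited table is 99 bp, longer than the hairpin printed above, and the table lists 2 genomic copies of it. The call of MIR4709 and that of MIR3654 were each lost under 2 of the 22 alternatives, without a total RNA library. MIR3064 had 7 to 9 and 0 to 1 reads in the same groups, with an interaction of 2.52 ± 0.46 (adjusted p = 0.0028). Reads over these hairpins can come from the host transcript, and mature microRNA was not measured. SDPR, a protein of caveolae, is a longer gene with firm levels, 0.678 and 0.713 FPKM in CDK12 siRNA total RNA, against 6.87 and 6.74 FPKM in control total RNA, and 15.3 and 18.4 FPKM in the CDK12 siRNA IP, against 15.9, 14.8 and 14.6 FPKM in the control IP. Its IP groups overlapped, its total RNA groups did not, and its interaction was 2.07 ± 0.13 (adjusted p = 2.7e-05).

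The interaction followed the length of the gene body, which FPKM counts with its introns. In 5 groups of 1980 to 1983 genes by length, the median interaction was 0.12, 0.13, 0.0028, -0.10 and -0.19, from the shortest (median 1850 bp) to the longest (median 80110.5 bp). Genes called lower numbered 179, 252, 384, 561 and 848 in the same order, and genes called higher 293, 461, 384, 290 and 229. In the group of the longest genes 144 rose and 445 fell in the IP, and 868 rose and 349 fell in total RNA. Total RNA holds unspliced RNA as well as mRNA, and the part of introns in this trend was not tested. With the length trend removed from each library 1953 genes were lower and 1534 higher.

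**Figure D4:**
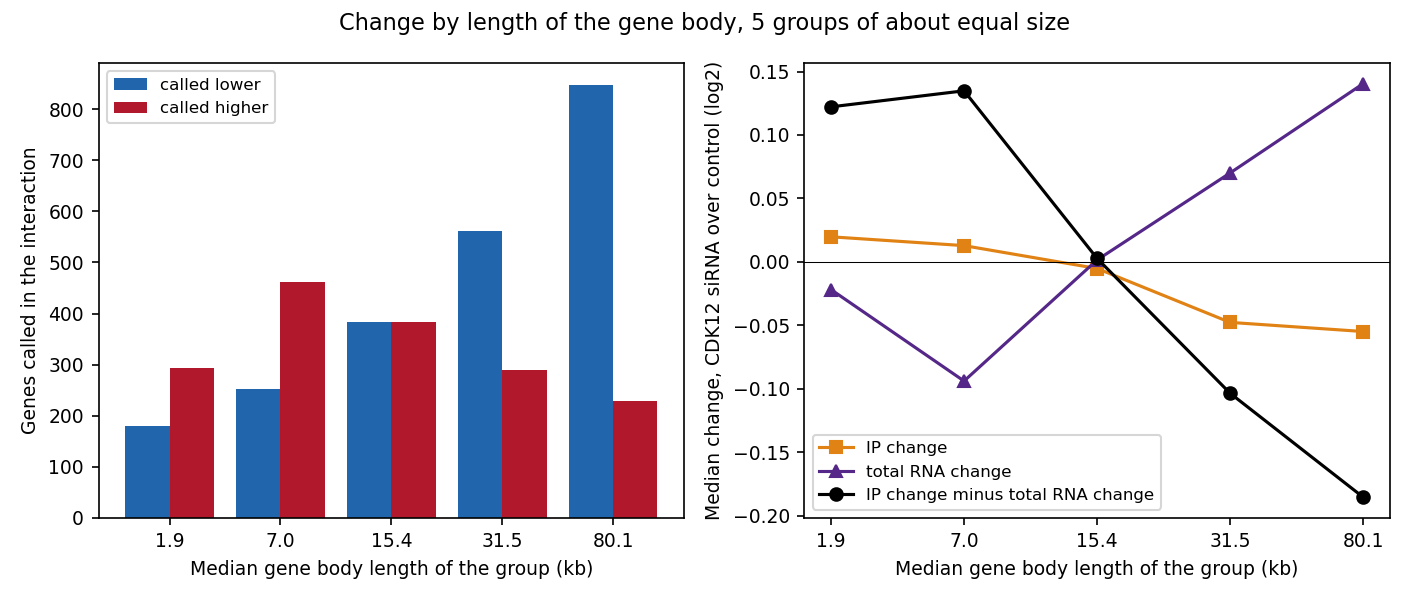
The left panel counts genes called lower (blue) and higher (red) in the interaction in 5 groups of gene body length, labelled with the median length of the group in kb, and the right panel gives the median log2 change of CDK12 siRNA over control siRNA in the IP (orange), in total RNA (purple) and their difference (black). Lower calls number 179 among the shortest and 848 among the longest genes, while the median change in total RNA reaches 0.14 and that in the IP -0.05 in the longest genes.

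The authors' deposited table holds the same interaction without scaling (largest difference 5e-10 from the value recomputed from FPKM) and marks a gene as having lost binding after CDK12 siRNA where it is below -0.4, with no test. That call covers 1114 of 26454 genes (4.21%), of which 1001 carry no call of changed expression in the authors' deposited table. Of these genes 888 were tested here, and 724 of them (81.5%) were called lower, 164 were not called and 0 were called higher. The 724 are 32.6% of the genes called lower here. The call in the authors' deposited table included 8 of the 38 translation initiation genes, 8 of the 27 heat shock genes, 8 of the 45 proteasome genes and 9 of the 76 mitochondrial ribosome genes, all called lower here, and 5 of the 39 histone genes, 0 of which were.

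**Figure D5:**
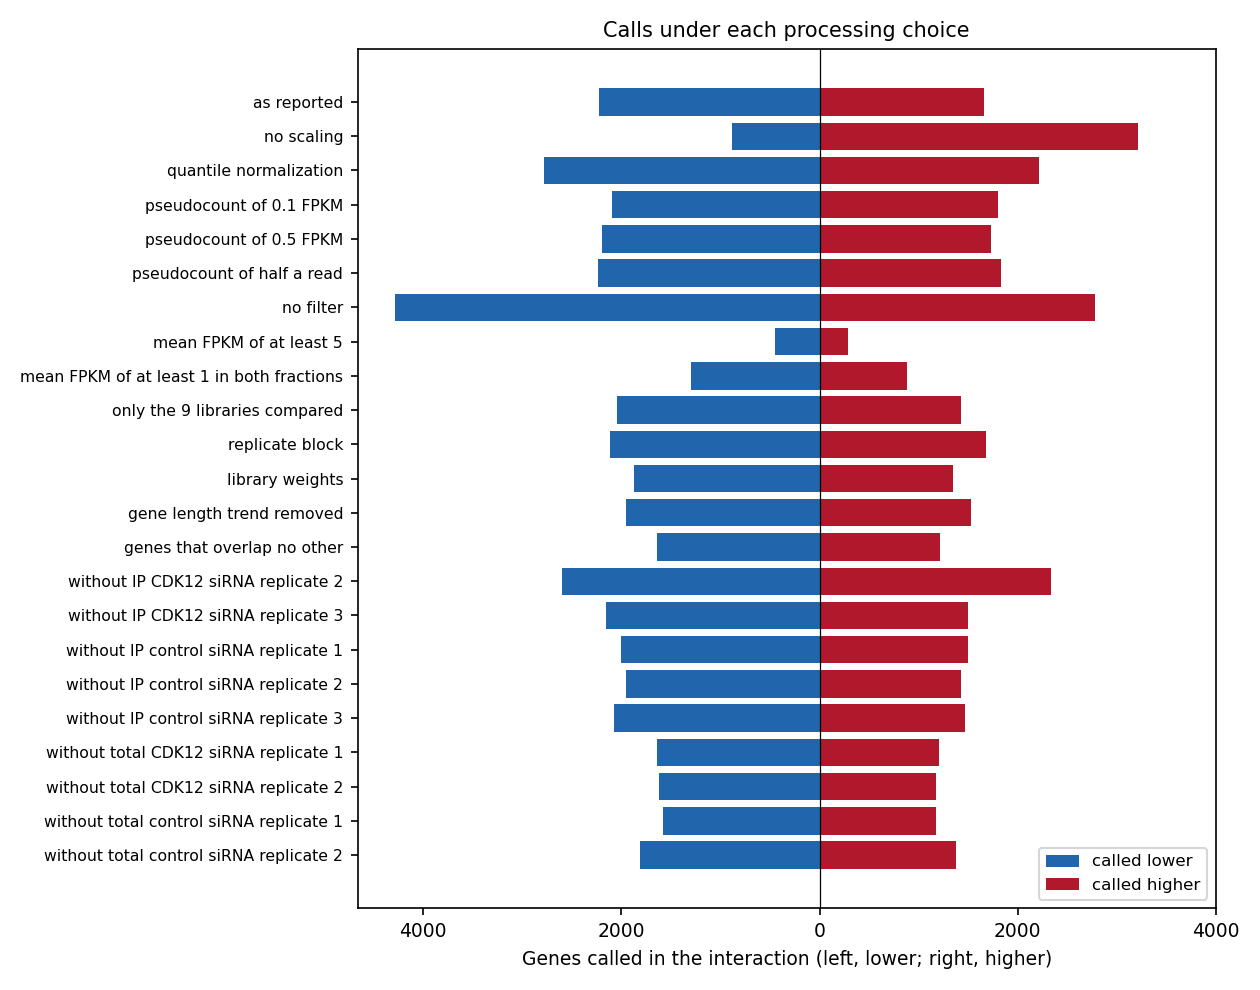
Genes called lower (blue, to the left) and higher (red, to the right) in the interaction under the reported setting and 22 alternatives. The split turns to 886 lower and 3212 higher without scaling, and lower calls outnumber higher ones under each of the other 21 alternatives.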

How the data were processed

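The deposited values are FPKM per gene, which the authors made with HOMER's gene counting program over whole hg19 gene bodies, introns included, per the file headers. Per the submitters' processing notes, STAR 2.4.0k and FastQC were used. The sources used here do not give the strand setting or the annotation release. The authors' deposited table also holds log2 differences of group means and TRUE or FALSE calls, used here only for the comparison with the authors' call. In it 28 symbols turned into dates were repaired and 3 emptied lines left out.

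Low FPKM values were whole multiples of 1 read in 100% of those used (tolerance 0.05 reads), which gave the depths. FPKM are not counts, so log2(FPKM + 1) was tested after division by median-ratio factors worked out over all 13 libraries. These factors were 0.869 to 1.23, and 0.869 to 1.04 in the 9 libraries compared. All 6 groups of 13 libraries entered 1 fit without covariates in limma 3.58.1 (lmFit, eBayes with a trend, 9.22 degrees of freedom, R 4.3.3). P-values were adjusted by Benjamini-Hochberg over the 9908 genes of each contrast, with a threshold of 0.05. No pair of replicates agreed within counting noise (chi-square per degree of freedom 3.53 to 57.6).

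The comparison, the 33 gene lists and the rule for named genes were chosen with earlier results of these data known. The list of mitochondrially encoded genes was not analysed here, and 1 other list and 2 named genes are not reported here. Named are 8 fixed genes, the 12 largest falls and rises among called genes with a mean of at least 5 FPKM in a group of each fraction and 1 sign in all 24 library combinations, and up to 4 called members of each list with the smallest p. Lists are described by counts and medians, without a test. Overlapping gene bodies share reads. Simulated data were tested in 5 draws over 9908 genes with 200 changed genes each. Spreads were shuffled between genes within each group, so the tie between level and spread in the real data was lost. The shares found are those of such draws and can differ in the real data. The interaction found 53.2%, 74.2% and 91.6% of 1.5-fold, 2-fold and 4-fold changes, and called 2.13% of unchanged genes. Unchanged genes were far more numerous, so at that rate they made up more of the simulated calls than changed genes did. The draws therefore do not show that the adjusted p holds false calls to its threshold. The share of false calls in the real data was not tested. Python 3.11.15, pandas 2.3.3, numpy 2.4.6 and matplotlib 3.10.9 made the tables and plots.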

Additional observations from a re-analysis of the deposited data

Results flagged for a closer look

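In 33 named genes the changes of the IP and total RNA after CDK12 siRNA both passed the test (limma, adjusted p under 0.05). They went in opposite directions. The interaction, the difference of these changes, passed too but is no separate evidence, because every tested gene with such opposite calls passed it. Of all 9908 tested genes 299 fell in the IP and rose in total RNA, and 204 did the reverse. Many named genes were picked by the smallest p of the interaction, so the 33 do not show how frequent opposite calls are. The values are the interaction on the log2 scale.

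The difference was above 0, with a rise in the IP and a fall in total RNA, for FN1 (1.60), RPPH1 (1.58), CTSA (1.34), COL4A2 (0.996) and EEF1A2 (0.80). All other genes fell in the IP and rose in total RNA. The directions given here are those after scaling. In FPKM as deposited the siRNA groups overlapped in total RNA for PSMD11 and TUBB3, and in the IP for HSPD1, LARP1 and FOSL1. The small nucleolar RNA SNORA61 was at -3.00 and SNHG12, the longer gene that SNORA61 lies in, at -1.83. These 2 genes can share reads and are not separate results. NME1 was at -2.03 and FOSL1 at -1.83. Among translation genes the values were -0.91 for EIF4G1, -0.77 for EIF4E, -0.81 for PAIP2, -0.60 for LARP1, -1.28 for RPL26L1 and -0.65 for IPO7. The tRNA-charging enzymes GARS (-1.75), YARS (-0.89), IARS (-0.62) and CARS (-0.52) belong here too. Chaperone and secretion genes were SEC61G (-1.54), HSPA5 (-1.36), AHSA1 (-1.02) and HSPD1 (-0.66), whose call was lost without scaling. Proteasome genes were PSMB7 (-0.93), PSMD12 (-0.89), PSME4 (-0.81) and PSMD11 (-0.71). Mitochondrial genes were MRPL32 (-1.48), MRPL39 (-1.26) and UQCRFS1 (-1.11). The remaining genes were POLR2A (-0.79), NIPBL (-0.53) and TUBB3 (-0.53). Total RNA includes unspliced RNA and the IP was not set beside a control IP, and the part of either in these differences was not tested.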

How the results depend on the processing

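The interaction gave 2224 genes lower and 1657 higher. Scaling and the choice of genes moved these counts most, with 886 and 3212 without scaling, 4287 and 2786 of 24150 genes with no filter, 452 and 290 of 2125 genes at 5 FPKM or more on average, and 1301 and 887 of 5361 genes that averaged 1 FPKM or more in each fraction, where fewer or more genes were tested. Leaving out 1 library gave 1577 to 2598 genes lower and 1173 to 2334 higher, the most without replicate 2 of the CDK12 siRNA IP and the fewest when a total RNA library was left out. The other alternatives (quantile normalization, smaller pseudocounts, 9 libraries only, library weights, length trend removed, genes that overlap no other) stayed within 1.5 times of both counts. Deviations of 10 same-numbered pairs of libraries correlated between -0.11 and 0.10. In groups of 2 libraries the deviations mirror each other, so these values cannot tell whether replicate numbers pair the libraries. The fit with a replicate block gave 2114 lower and 1678 higher.

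Of 150 named genes called in the interaction, 121 were called under every one of the 22 alternatives that tested them. Leaving out 1 library lost 2 to 14 of these calls. Only MALAT1 changed sign, to 0.046 under quantile normalization, where it was not called, and the cause was not tested. The IP after CDK12 siRNA rests on 2 libraries that vary more than the others, which limits what the test can find for small changes. The fit holds 1 spread per gene for all 6 groups, which can understate the scatter of these 2 libraries. P-values that involve the CDK12 siRNA IP can therefore be too small. With library weights, which count libraries that scatter more for less, 1868 genes were lower and 1344 higher in the interaction.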

Other observations

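The genes MYO1D and KLF17 were chosen here after their values were seen, because total RNA kept both under the level that the rule for named genes asks for. MYO1D, an unconventional myosin, had 29.1 and 69.6 FPKM in the CDK12 siRNA IP, against 4.15, 3.48 and 1.26 FPKM in the control IP. Its total RNA was at 2.24 and 2.48 FPKM after CDK12 siRNA and at 1.88 and 2.33 FPKM in controls, so the groups overlapped there and did not in the IP. The interaction was 3.22 ± 0.60 in limma (adjusted p = 0.0033), and 3.85 and 2.58 without replicate 2 and without replicate 3 of the CDK12 siRNA IP. KLF17, a transcription factor, had 13.7 and 2.79 FPKM in the CDK12 siRNA IP, against 33.5, 25.9 and 27.8 FPKM in the control IP. Its total RNA stayed under 1 FPKM in both groups, and its interaction was -2.15 ± 0.63 (adjusted p = 0.024), and -3.11 and -1.19 without replicate 2 and without replicate 3 of the CDK12 siRNA IP. In both genes the 2 CDK12 siRNA IP libraries lay on 1 side of all controls but far apart from each other.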
